A study of Mus musculus with 20 samples.

Results

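Extracellular matrix proteases and their inhibitors were examined in lymphatic endothelial cells (LECs) of the skin as a set of 10 genes: the matrix metalloproteinases Mmp2, Mmp3 and Mmp14, the ADAM sheddases Adam10 and Adam17, the ADAMTS proteoglycanases Adamts1 and Adamts4, and the tissue inhibitors of metalloproteinases Timp1, Timp2 and Timp3. Members were taken as the rows of the deposited count tables that carry these symbols. All 10 were found among 24062 gene symbols, and all 10 were among the 19209 that passed the filter on low counts. The cells came from ear skin of wild-type C57BL/6 mice (C57BL/6N males in the study's methods) on postnatal day 56, kept in a light-dark cycle in which zeitgeber time (ZT) counts the hours from light onset, and were sorted as CD31+podoplanin+ cells at ZT1 (morning), ZT7 (day), ZT13 (evening) or ZT19 (night). In the labels the groups share genotype and strain and differ by the time of harvest. Each time point held 5 libraries, 20 in all, and each library came from the pooled ears of 2 mice, so n counts pools and not animals. Light cabinets were used in the study to shift light-dark cycles, and the labels do not say which pools came from shifted mice.

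Matrix metalloproteinases, ADAMs and ADAMTS enzymes are zinc-dependent proteases that cut collagens, basement membrane components and proteoglycans, or release the outer part of membrane proteins from the cell surface. TIMPs bind their catalytic sites and block them. In lymphatic vessels such proteases are known from sprouting, from remodelling of the matrix through which leukocytes pass, and from the shedding of surface receptors such as LYVE-1, which MMP14 can cut from LECs. MMP14, also called MT1-MMP, sits in the plasma membrane and activates pro-MMP2 in a complex in which TIMP2 forms the bridge, so Mmp14, Mmp2 and Timp2 are also read as parts of 1 activation system. TIMP3 binds to the matrix and inhibits ADAM17 and ADAMTS4 as well as the matrix metalloproteinases.

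The sort was first checked on marker genes. All 8 LEC markers were detected in all 20 libraries, with Prox1, the lymphatic identity factor, at 2702 ± 934 normalized counts (SD, n = 20), where a normalized count is a read count scaled to a common library size by edgeR's TMM method. Transcripts of other skin cells were present too. The 12 keratinocyte markers summed to between 10076 and 31406 normalized counts at ZT13 and to between 95912 and 183190 at ZT19, and 6 of the 12 passed edgeR's test among the time points (adjusted p under 0.05), while 0 of the 8 fibroblast markers did (4 at an unadjusted p under 0.05, 1 with DESeq2). The fibroblast markers summed to between 6547 and 19462 at ZT1 and, without overlap, to between 1795 and 6032 at ZT7, where all 8 were fitted lower than at ZT1 with a median difference of -1.41 (0 passed, 5 at an unadjusted p under 0.05 in edgeR's test). Leukocyte markers were low, with Ptprc, which encodes CD45, at 82.4 ± 82.2 normalized counts and all 7 tested markers at 0 in at least 1 library. Of the markers of blood endothelium (6), pericytes and smooth muscle (6), cartilage (6) and Schwann cells and melanocytes (5), 0 passed in edgeR's test of the 4 time points (1, 0, 2 and 0 at an unadjusted p under 0.05, and 1, 0, 0 and 0 with DESeq2). Between 4475111 and 42002363 reads per library were counted on genes. Reads counted on genes, as a share of these and of the reads on no gene, ran from 12.7% to 81.6%, highest at ZT19 (median 64.0%).

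Promoter sequence was looked up for the members. The promoter set used, with RefSeq starts on GRCm38.p6, gave a window of 300 bases, from 250 before to 50 after the start, for 8 of the 10 genes. Mmp2 and Adamts4 were not in this set, which does not mean that RefSeq lacks them. Each window was searched on both strands for the AP-1 motif TGANTCA, a binding sequence of the FOS and JUN proteins, and for the E-box CACGTG, to which CLOCK and BMAL1 bind. AP-1 was found in 1 of the 8, that of Mmp3, against 7.81% of 32851 promoters, and the E-box in 1 of the 8, that of Adam10, against 7.15%. With 8 promoters, a count of 1 does not set the members apart from these shares. Both promoters are printed here because these 2 members hold a match, and Mmp3 is also the member with the smallest p among the time points. The 250 bases before the RefSeq start are given 5′ to 3′ with the motif in capitals, on the plus strand at chr9:7445572-7445821 for Mmp3 and at chr9:70678732-70678981 for Adam10.
Mmp3: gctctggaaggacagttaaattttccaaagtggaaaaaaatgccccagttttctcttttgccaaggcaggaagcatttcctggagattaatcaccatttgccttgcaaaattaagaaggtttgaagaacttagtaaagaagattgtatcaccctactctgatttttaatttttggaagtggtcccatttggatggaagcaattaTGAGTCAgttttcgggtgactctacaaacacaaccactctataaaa
Adam10: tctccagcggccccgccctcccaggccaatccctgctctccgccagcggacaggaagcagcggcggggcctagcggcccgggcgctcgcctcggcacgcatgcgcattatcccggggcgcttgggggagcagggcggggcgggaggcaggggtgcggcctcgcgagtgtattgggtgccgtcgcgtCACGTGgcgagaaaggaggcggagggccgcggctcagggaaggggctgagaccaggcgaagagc
The first base of the AP-1 match lay at -46 in Mmp3 and that of the E-box at -64 in Adam10, where -1 is the base before the start. A match of letters describes the sequence only and shows no binding.

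Levels of different genes were compared per transcript length, as TPM, a gene's share of a library's transcripts, on a fixed total, after its count is divided by its exon length in GENCODE M21. The 2 most abundant members were inhibitors. Timp2, on chromosome 11, had 1291 ± 647 TPM (SD, n = 20) and stood at the 99.7th percentile of all genes, and Timp3, on chromosome 10, had 1051 ± 549 TPM. Timp3 was below Timp2 in 17 of 20 libraries, but their ranges of 543 to 2511 TPM for Timp3 and 631 to 2791 TPM for Timp2 overlapped almost wholly. In raw counts Timp3 exceeded Timp2, by 1.155 to 2.691 times over the 20 libraries. Their order in TPM thus rests on the exon lengths used, 8144 bases for Timp3 and 3896 for Timp2. Of the Timp3 bases, 1733 are shared with Syn3 on the opposite strand, so the order of these 2 genes is uncertain.

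Of the proteases, Adam10 was the most abundant by mean, at 107.9 ± 49.4 TPM, and lay below Timp3 in 20 of 20 libraries. Mmp2 (84.3 ± 69.2 TPM), Mmp14 (67.4 ± 30.0 TPM) and Adamts1 (49.6 ± 35.5 TPM) followed. Mmp14 lay below Mmp2 in only 10 of 20 libraries, so these 2 neighbours did not differ beyond their spread, whereas Adamts1 lay below Mmp14 in 17. Timp1 (26.1 ± 38.3 TPM), Mmp3 (23.4 ± 37.7 TPM) and Adam17 (18.4 ± 8.98 TPM) could not be ordered, since Mmp3 was below Timp1 in 13 libraries and Adam17 below Mmp3 in 6. Adamts4 was lowest in 20 of 20 when set against Adam17, at 3.54 ± 3.94 TPM. Summed over the set, TIMP transcripts exceeded protease transcripts by 6.83 ± 1.69 times in TPM, with 3.95 in the lowest and 10.5 in the highest library.

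**Figure D1:**
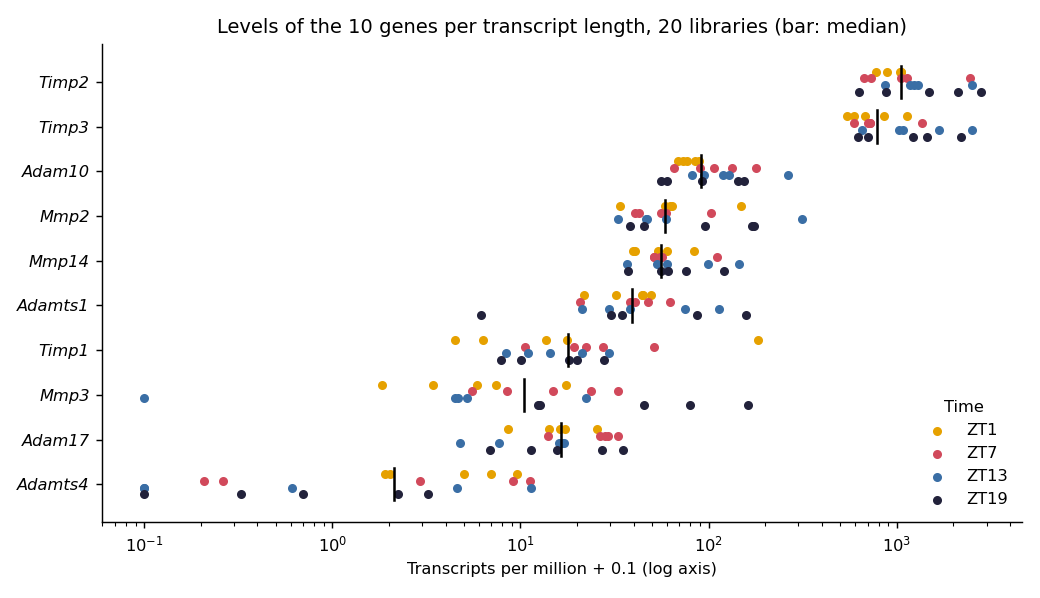
TPM (log axis, 0.1 added) of each member, 1 point per library coloured by time of harvest, with the median over 20 libraries as a bar. Timp2 and Timp3 stand apart at 543 TPM and above in every library, and Adamts4 reaches 0 in 3 libraries.

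Next, members were tested for a change over the day. The levels of all 10 members overlapped between the time points. Mmp3 differed most, with a mean of 367 normalized counts at ZT19 against 52.0 to 91.2 at the other time points, and the means of Timp2, Timp3, Mmp14 and Adam10 differed by less than 1 on the log2 scale. Each test was edgeR's quasi-likelihood F-test with Benjamini-Hochberg adjustment over all 19209 genes, and a gene was called at an adjusted p under 0.05. Over the 4 time points 0 of the 10 members were called, where 0.422% of all genes tested were, and 1 had an unadjusted p under 0.05. DESeq2 also called 0 there, against 3.77% of all genes. A curve of cosine shape over 24 h was called for 0 members (0.0312% of all genes), with 0 at an unadjusted p under 0.05 and 0 by DESeq2 (0.791% of all genes).

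Between pairs of time points, edgeR called 0 members in each of the 6 comparisons. The background was 0.00521% of genes for ZT7 against ZT1, 0.0208% for ZT13 against ZT1, 0.0156% for ZT19 against ZT1, 0.0937% for ZT13 against ZT7, 0.0156% for ZT19 against ZT7 and 0.588% for ZT19 against ZT13. With 10 members, counts of 0 do not set the members apart from these shares. At an unadjusted p under 0.05 the counts were 1 for each of the 3 pairs that hold ZT19 and 0 for the other 3, and the gene was Mmp3 each time. The normalized counts of no member were fully separated between any 2 time points, while those of 1.0% to 8.56% of all genes were, depending on the pair.

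**Figure D2:**
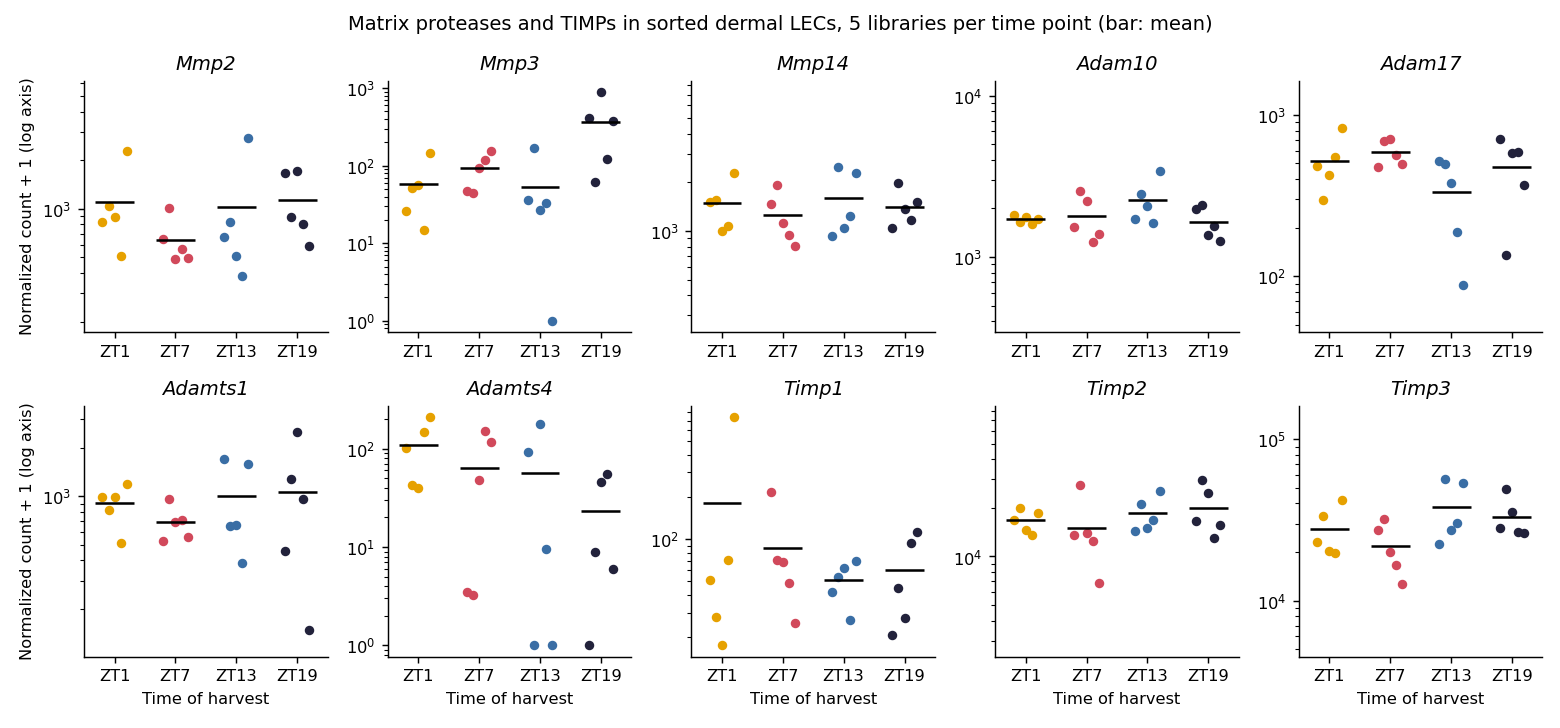
Normalized counts (log axis, 1 added) of the 10 members at each time point, 1 point per library, 5 per time point, with the mean as a bar. Mmp3 is highest at ZT19, where its libraries run from 61.1 to 878, and the time points of every member overlap.

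Mmp3 encodes stromelysin-1, which cuts proteoglycans, laminin and fibronectin and activates other pro-MMPs. The gene lies on chromosome 9 (7445822 to 7455975, GRCm38, plus strand). At ZT19 its 5 libraries had 406.5, 61.1, 878, 119.95 and 371 normalized counts, and at ZT13 they had 34.7, 168, 25.8, 31.98 and 0. At ZT1 they had 25.2, 50.3, 55.6, 13.9 and 144, and at ZT7 they had 46.7, 44.0, 91.0, 119 and 156. Of the ZT19 libraries, 3 thus lay above every library of the other time points and the other two within their range. The mean was 367 ± 323 (SD, n = 5) at ZT19, 57.8 ± 51.0 at ZT1, 91.2 ± 47.8 at ZT7 and 52.0 ± 66.0 at ZT13.

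For Mmp3, the difference between ZT19 and ZT13 was 2.82 on the log2 scale (SE 0.99, 95% confidence interval 0.80 to 4.85), with an adjusted p of 0.116 in edgeR's test. ZT19 exceeded ZT1 by 2.68 (SE 0.98, interval 0.66 to 4.70, adjusted p = 0.120 in edgeR's test) and ZT7 by 2.01 (SE 0.96, interval 0.05 to 3.97, adjusted p = 0.243). With each library left out, the difference of ZT19 ran from 2.2 to 4.01 for ZT13, from 2.05 to 3.33 for ZT1 and from 1.4 to 2.3 for ZT7. The on-gene share of reads was higher in all 5 libraries of ZT19 (35.0% to 81.6%) than in those of ZT1 (20.2% to 29.5%), and with that share as a covariate the differences of ZT19 from ZT13, ZT1 and ZT7 were 3.57, 3.71 and 3.09 (edgeR, adjusted p of 0.202, 0.442 and 0.425). Among the 4 time points its p was 0.0102 and its adjusted p 0.221 by edgeR, the smallest of the set, and rank 889 of all genes tested. DESeq2, which was also the tool of the study, put Mmp3 past the threshold for ZT19 against ZT13 (2.73, adjusted p = 0.0310) and against ZT1 (2.64, adjusted p = 0.0366), but called 9.68% and 10.8% of all genes in these comparisons. A fitted curve of 24 h gave Mmp3 an amplitude of 1.02 and a peak at 19.3 h (edgeR, adjusted p = 0.568), and the amplitude ran from 0.655 (without ZT19 replicate 3) to 1.22 with each library left out.

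Keratinocyte transcripts were also abundant at ZT19, and at ZT7. Their summed counts ran from 95912 to 183190 at ZT19 and from 61907 to 181430 at ZT7, and 0 of the 12 markers were called between these time points in edgeR's test (2 at an unadjusted p under 0.05). All 12 keratinocyte markers were fitted higher at ZT19 than at ZT13, 7 of them past the threshold, among them Krt5, a keratin of basal keratinocytes, with 23522 ± 9881 normalized counts at ZT19 and 3296 ± 1934 at ZT13 (SD, n = 5). Across the 20 libraries, log2 Mmp3 had a Pearson's r of 0.557 with the keratinocyte score, the mean centred log2 level of the 12 markers (permutation p = 0.0126, adjusted p = 0.0630 over 40 relations), and a Spearman's rho of 0.484 (permutation p = 0.0318, adjusted p = 0.141). The r was 0.534 without the 2 libraries farthest from the median score and 0.165 within time points. Of all genes, 3.05% had an r at least as high. With the score as a covariate, the difference of ZT19 from ZT13 was 4.62 (edgeR, adjusted p = 0.233), and no gene at all was called for that pair (113 without the covariate). The score of ZT13 (-2.98 to -0.33) did not overlap that of ZT19 (0.27 to 1.44) or of ZT7 (0.33 to 1.73). A fit with this covariate therefore cannot separate the score from these time points. In bulk RNA, more cells of a type and more RNA per cell cannot be told apart. Of the 12 markers, only Dsg3 was at 0 in any library (1 of ZT13). The part of keratinocyte RNA in the level of Mmp3 was not tested.

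**Figure D3:**
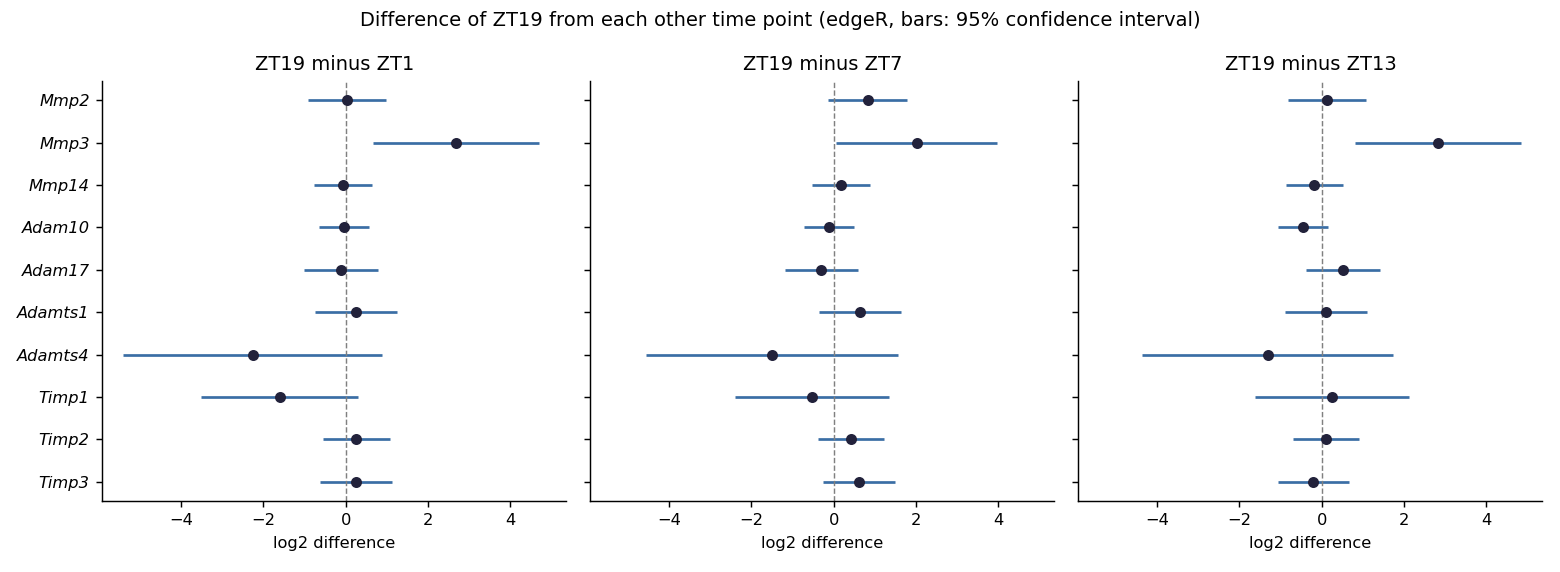
Difference of ZT19 from ZT1, ZT7 and ZT13 on the log2 scale for each member, as fitted by edgeR, with 95% confidence intervals as bars. Intervals of Mmp3 lie above 0 in the 3 panels (0.66 to 4.70, 0.05 to 3.97 and 0.80 to 4.85), before adjustment over genes, and those of the other 9 members include 0.

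Mmp14 and Mmp2, the membrane-bound activator and its gelatinase substrate, were steadier in their means. Mmp14, on chromosome 14, had 1503, 1543, 997, 1069 and 2287 normalized counts in the libraries of ZT1 and 1461, 1929, 1117, 940.2 and 803 in those of ZT7. At ZT13 it had 933, 2493, 1037, 1243 and 2276, and at ZT19 1036, 1981, 1359, 1169.9 and 1514. Every time point covered nearly the same range. The largest fitted difference, ZT13 over ZT7, was 0.35 (interval -0.35 to 1.06), and edgeR's test of the 4 time points gave an adjusted p of 0.914. With the keratinocyte score as a covariate, which did not overlap between these time points, this difference turned to -0.641. With each library left out the difference ran from 0.135 (without ZT13 replicate 2) to 0.565 (without ZT7 replicate 2).

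Mmp2, which degrades type IV collagen of basement membranes and lies on chromosome 8, had 1109 ± 685 normalized counts at ZT1 (SD, n = 5), 639.7 ± 214 at ZT7, 1032 ± 982 at ZT13 and 1131 ± 521 at ZT19. At ZT7 its libraries ran from 491 to 1005, and at ZT13 from 385 to 2763, so a single library set the mean of ZT13. ZT19 exceeded ZT7 by 0.82 (SE 0.47, interval -0.13 to 1.78, adjusted p = 0.330 in edgeR's test), and with the on-gene share of reads as a covariate this difference was 0.0041. No interval of a pair for Mmp2 or Mmp14 excluded 0.

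Adam10 and Adam17 release membrane proteins from the surface. ADAM10 cuts Notch receptors, and ADAM17, also known as TACE, frees TNF and L-selectin. Adam10, on chromosome 9, was the tightest member at 1 time point, with 1827, 1637, 1756, 1603 and 1724 normalized counts at ZT1. It had 2247 ± 718 (SD, n = 5) at ZT13 and 1650.3 ± 372 at ZT19. This difference was -0.45 (ZT19 minus ZT13, interval -1.05 to 0.16, adjusted p = 0.415 in edgeR's test). With the keratinocyte score as a covariate, which did not overlap between these time points, ZT13 minus ZT19 was 0.121. Without ZT13 replicate 5 it was 0.248. Adam10 thus showed no detectable change at this depth and spread.

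Adam17, on chromosome 12, was spread more widely. Its 5 libraries had 515, 497, 375, 188 and 87.0 normalized counts at ZT13 and 477, 684, 713, 566 and 498 at ZT7. At ZT19 they had 709, 134, 579, 588 and 367, and at ZT1 between 295 and 829. The lowest libraries, ZT13 replicates 4 and 5 and ZT19 replicate 2, thus lay in 2 time points. ZT13 minus ZT7 was -0.83 (SE 0.44, interval -1.72 to 0.07, adjusted p = 0.9999 in edgeR's test). With the keratinocyte score as a covariate, which did not overlap between these time points, ZT7 minus ZT13 was 0.483. Across libraries, log2 Adam17 fell with the tissue handling score described below (Pearson's r = -0.632, permutation p = 0.00247, adjusted p = 0.0247, Spearman's rho = -0.457, permutation p = 0.0444, adjusted p = 0.177, within time points r = -0.518, without the 2 farthest libraries r = -0.509), and 1.68% of all genes outside the score had an r at least as low. This call was lost when ZT7 replicate 3, ZT13 replicate 5 or ZT19 replicate 2 was left out (adjusted p of 0.0537, 0.227 and 0.0524). Exons of Adam17 share 311 bases with Iah1 on the opposite strand, and the kit used does not mark strand, so reads from these bases cannot be told apart.

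Adamts1 and Adamts4 cut the large proteoglycans versican and aggrecan. Adamts1, on chromosome 16, had 901 ± 256 normalized counts at ZT1 (SD, n = 5), 688 ± 170.3 at ZT7, 996 ± 600 at ZT13 and 1067 ± 911 at ZT19. ZT19 alone held both its lowest library, at 146, and its highest, at 2497. In edgeR's test of the 4 time points its adjusted p was 0.834, and the difference of ZT19 from ZT7 was 0.632, or 0.0451 without that highest library (ZT19 replicate 3).

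Adamts4, on chromosome 1, was sparse. At ZT1 the libraries had 99.6, 41.9, 39.1, 147 and 208 normalized counts, and at ZT7 2.46, 2.29, 46.5, 150.02 and 114. At ZT13 they had 92.1, 0, 179, 8.53 and 0, and at ZT19 0, 7.93, 45.2, 54.2 and 4.97. A count of 0 allows up to 3 reads, which is between 0.65 and 7.18 normalized counts depending on the library. Only ZT1 had no library under 39 normalized counts. The fitted difference of ZT19 from ZT1 was -2.26 (SE 1.53, interval -5.40 to 0.87, adjusted p = 0.388 in edgeR's test), and with the on-gene share of reads as a covariate the sign of the difference between these time points turned (ZT1 minus ZT19 was then -1.92, with an edgeR adjusted p of 0.467 over the 4 time points). With the fibroblast or the keratinocyte score as a covariate ZT1 minus ZT19 was 0.967 or 5.32, against 2.26.

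That share was the property of the libraries with which Adamts4 moved most. Its log2 level fell as the log2 odds that a read lay on genes rose (Pearson's r = -0.794, permutation p = 3e-05, adjusted p = 0.0012 over 40 relations, Spearman's rho = -0.806, permutation p = 4e-05, adjusted p = 0.0016). Within time points r was -0.845, with the 2 farthest libraries left out it was -0.675, and it ran from -0.751 to -0.849 over the alternatives tried. The same held for many scarce genes, since 8.96% of all genes tested and 18.3% of those with a mean under 100 normalized counts had an r at least as low.

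Timp1, a secreted TIMP that inhibits most soluble matrix metalloproteinases and is induced in injured skin, lies on the X chromosome. It had 50.5, 26.8, 16.5, 69.6 and 739.9 normalized counts at ZT1 and 216, 70.3, 67.7, 47.5 and 24.4 at ZT7. The libraries of ZT13 ran from 25.6 to 68.5 and those of ZT19 from 19.6 to 112. ZT1 replicate 5 alone made ZT1 the highest time point. ZT13 minus ZT1 was -1.85 (SE 0.94, interval -3.78 to 0.07, adjusted p = 0.951 in edgeR's test), and without that library the difference between ZT1 and ZT13 turned to -0.28 (ZT1 minus ZT13) and the 24-h amplitude dropped from 0.96 to 0.28.

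Timp2, the partner of MMP14 in the activation of pro-MMP2, had at ZT1 16903, 19960.0, 14607, 13498 and 18677 normalized counts. At ZT7 it had 13510.0, 27809, 13991, 12416 and 6853. The remaining libraries lay between 14411 and 25474 at ZT13 and between 12933 and 29968 at ZT19. ZT19 exceeded ZT7 by 0.42 (interval -0.39 to 1.23), and edgeR's test of the 4 time points gave an adjusted p of 0.898. With the on-gene share of reads as a covariate the difference turned to -0.0311, and it ran from 0.227 (without ZT19 replicate 2) to 0.772 (without ZT7 replicate 2) with each library left out.

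Timp3, the matrix-bound inhibitor with the broadest range of targets, had 23138, 33628, 20419, 19663 and 42266 normalized counts at ZT1 and 27385, 32119, 20072, 16546 and 12722 at ZT7. At ZT13 it had 22553, 56946, 27445, 30458 and 53566, and at ZT19 28334, 49027, 35413, 26551 and 26302. The lowest library of ZT19 thus lay above 3 of the 5 of ZT7, and the 2 highest of all were from ZT13. Fitted values were higher by 0.81 at ZT13 than at ZT7 (SE 0.43, interval -0.06 to 1.69, adjusted p = 0.9999 in edgeR's test). With the keratinocyte score as a covariate, which did not overlap between these time points, this difference turned to -0.0381. Timp3 lies inside Syn3, a gene of the opposite strand with which its exons share 1733 bases, so part of its count is uncertain.

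Timp3 moved with a set of 12 genes whose mean is here called the tissue handling score. The tissue handling score is the mean centred log2 level of 12 immediate-early and heat-shock genes (Fos, Fosb, Jun, Junb, Atf3, Egr1, Ier2, Dusp1, Zfp36, Hspa1a, Hspa1b and Socs3), which are known to rise when skin is digested before a sort, and had its highest median, 0.51, at ZT13 (libraries from 0.16 to 1.19), followed by 0.405 at ZT19 (-0.06 to 0.56). Libraries of ZT7 lay between -0.80 and -0.30 and those of ZT1 between -0.74 and -0.06. The score of ZT13 thus overlapped that of ZT19 and lay above those of ZT1 and ZT7. Among the time points 3 of the 12 passed in edgeR's test (6 with DESeq2), among them Fos, which encodes a subunit of AP-1, with 12594 ± 3091 normalized counts at ZT13 (SD, n = 5), 6394 ± 1625 at ZT19, 5074 ± 2099.7 at ZT1 and 3220.1 ± 748 at ZT7. The 12 genes did not share 1 course, since 5 of them were fitted higher at ZT19 than at ZT13. Among these 5 were Hspa1a and Hspa1b, with means of 313 and 1292 normalized counts at ZT19 and of 205 and 804 at ZT13. Log2 Timp3 rose with the score (Pearson's r = 0.729, permutation p = 0.00032, adjusted p = 0.0064 over 40 relations, Spearman's rho = 0.708, permutation p = 0.00067, adjusted p = 0.0134). The r was 0.592 without the 2 farthest libraries and 0.635 inside time points, and its adjusted p stayed at or under 0.0249 with each library left out in turn. Of 19197 genes outside the score, 19 (0.0990%) had an r with it at least as high. Handling was not measured, and the score also differed by time of harvest. Whether handling set the score or the level of Timp3 was not tested. Mmp3, whose promoter holds an AP-1 match, had a Pearson's r of -0.196 with the score (permutation, adjusted p = 0.629) and a Spearman's rho of 0.101.

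**Figure D4:**
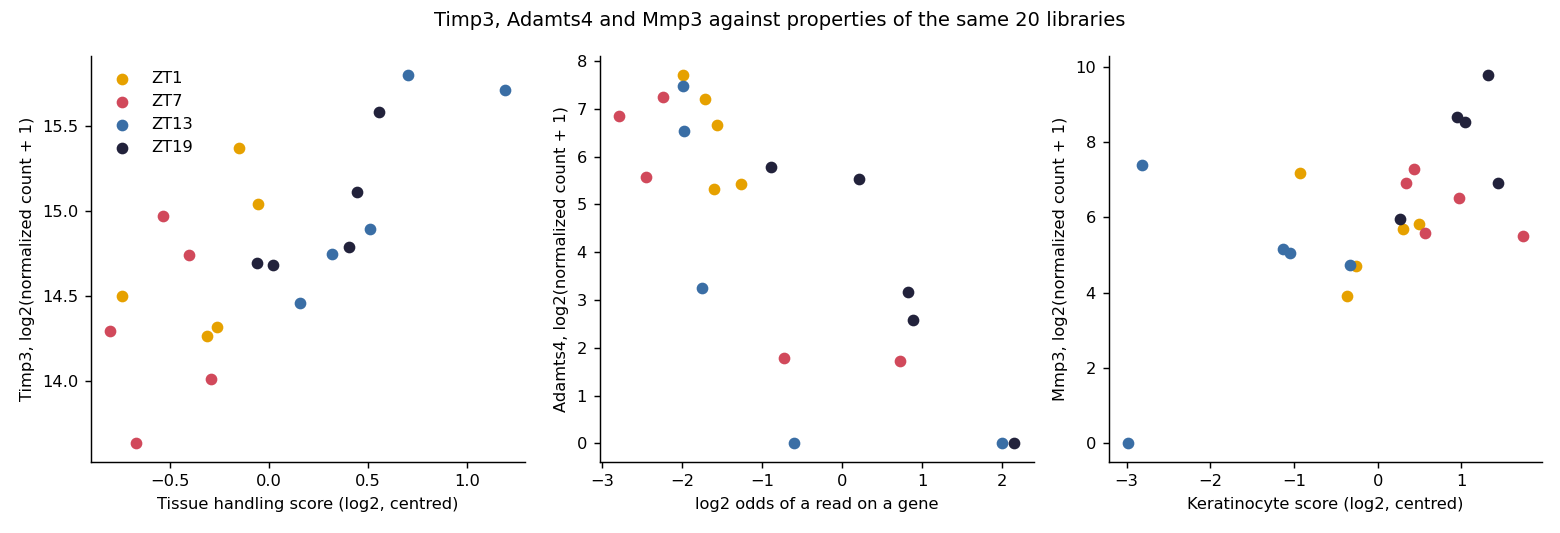
Log2(normalized count + 1) of Timp3 against the tissue handling score, of Adamts4 against the log2 odds that a read lay on genes, and of Mmp3 against the keratinocyte score, 1 point per library coloured by time of harvest, 20 libraries. Timp3 rises with the score (r = 0.729), Adamts4 falls with the odds (r = -0.794) and the r of Mmp3 with the keratinocyte score is 0.557, which did not pass the adjusted threshold.

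Of the 40 relations of the 10 members to the fibroblast, keratinocyte and tissue handling scores and to the log2 odds that a read lay on genes, 6 (15%) had an adjusted p under 0.05, 4 of them positive. The smallest r among these was 0.595 in size, and 12.1% of the relations of all genes to the same measures were at least as large, so the count does not set the members apart. It ran from 2 to 10 with each library left out. Besides those of Timp3, Adamts4 and Adam17 above, they were the relations of Timp2 (r = 0.641, permutation p = 0.00208, adjusted p = 0.0247, rho = 0.618), Mmp2 (r = 0.597, permutation p = 0.00549, adjusted p = 0.0375, rho = 0.615) and Timp3 (r = 0.595, permutation p = 0.00562, adjusted p = 0.0375, rho = 0.606) with the log2 odds that a read lay on genes. Within time points these were 0.648, 0.647 and 0.603, and without the 2 farthest libraries 0.712, 0.342 and 0.597. Of all genes, 5.35%, 6.88% and 6.97% had an r with these odds at least as high. The calls of Mmp2 and Timp3 were lost in 13 and 12 of 22 alternatives and that of Timp2 in 3, those without ZT7 replicate 5, ZT13 replicate 5 or ZT19 replicate 2. No member reached the threshold with the fibroblast score, for which Adamts4 had the highest r, 0.548 (permutation p = 0.0123, adjusted p = 0.0630, rho = 0.381).

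Members were then compared with each other across the 20 libraries, over 45 pairs. The levels share 1 scaling per library and part of the samples' differences in depth, so a correlation between them describes these libraries and not a common control. Mmp14 and Timp3 were the closest pair (Pearson's r = 0.882, adjusted p = 0.000225 from a permutation p of 1e-05, which is the lowest that 100000 permutations allow, Spearman's rho = 0.817, permutation p = 4e-05, adjusted p = 0.0009). Inside time points their r was 0.943, and it was 0.844 without the 2 farthest libraries, 0.841 with RLE scaling and 0.827 with upper quartile scaling.

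Timp3 was the gene most like Mmp14 among 10719 genes with a mean of at least 100 normalized counts, whose median r with Mmp14 was 0.135. Timp2 and Timp3 had an r of 0.847 (permutation p = 1e-05, the same limit, adjusted p = 0.000225, rho = 0.866, within time points 0.836, without the 2 farthest 0.763, 0.794 with RLE and 0.779 with upper quartile scaling), and Timp3 ranked 8th among the genes like Timp2. For Mmp14 and Timp2, which meet in the activation of pro-MMP2, r was 0.769 (permutation p = 5e-05, adjusted p = 0.00075, rho = 0.774, within time points 0.770, without the 2 farthest 0.827, 0.683 with RLE and 0.667 with upper quartile scaling), with Timp2 at rank 32 of the genes like Mmp14. In the other direction, Mmp14 was at rank 4 and Timp2 at rank 13 of the genes like Timp3, and Mmp14 at rank 61 of those like Timp2.

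Mmp2 was tied less closely to these genes. Its r was 0.578 with Timp2 (adjusted p = 0.0434 by permutation), 0.614 with Timp3 (adjusted p = 0.0434 by permutation) and 0.559 with Mmp14 (adjusted p = 0.0481 by permutation), and Timp3 was at rank 237 of 10719 genes like Mmp2. None of these 3 pairs was called with RLE scaling (r of 0.510, 0.553 and 0.486) or upper quartile scaling (0.462, 0.511 and 0.430). In all, 12 of the 45 pairs (26.7%) passed by Pearson's r, 10 of them positive, and 5 of the 12 also by Spearman's rho, namely the 3 pairs among Mmp14, Timp2 and Timp3 and those of Mmp2 with Timp2 and Timp3. The count depended on the scaling, with 3 pairs called under RLE and 6 under upper quartile scaling. Only the 3 pairs among Mmp14, Timp2 and Timp3 were called under all 3 scalings. The smallest r that passed was 0.547 in size, and 12.5% of the correlations of a member with any gene tested were at least as large. This background holds 8489 scarce genes, with a mean under 100 normalized counts, and was not matched to the members in level. The 2 shares therefore do not set the members apart. The pair of Mmp2 and Mmp14 had a rho of 0.520 (permutation, adjusted p = 0.106) and an r of 0.314 without the 2 libraries farthest in Mmp2.

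The negative pairs were Mmp3 with Adam10 (r = -0.575, adjusted p = 0.0469 by permutation) and Adamts4 with Timp3 (r = -0.575, adjusted p = 0.0434 by permutation). Neither passed by rank, with a rho of -0.337 (permutation, adjusted p = 0.337) and of -0.515 (permutation, adjusted p = 0.106). Without the 2 libraries farthest in Mmp3 or Adamts4 their r was -0.162 and -0.355.

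**Figure D5:**
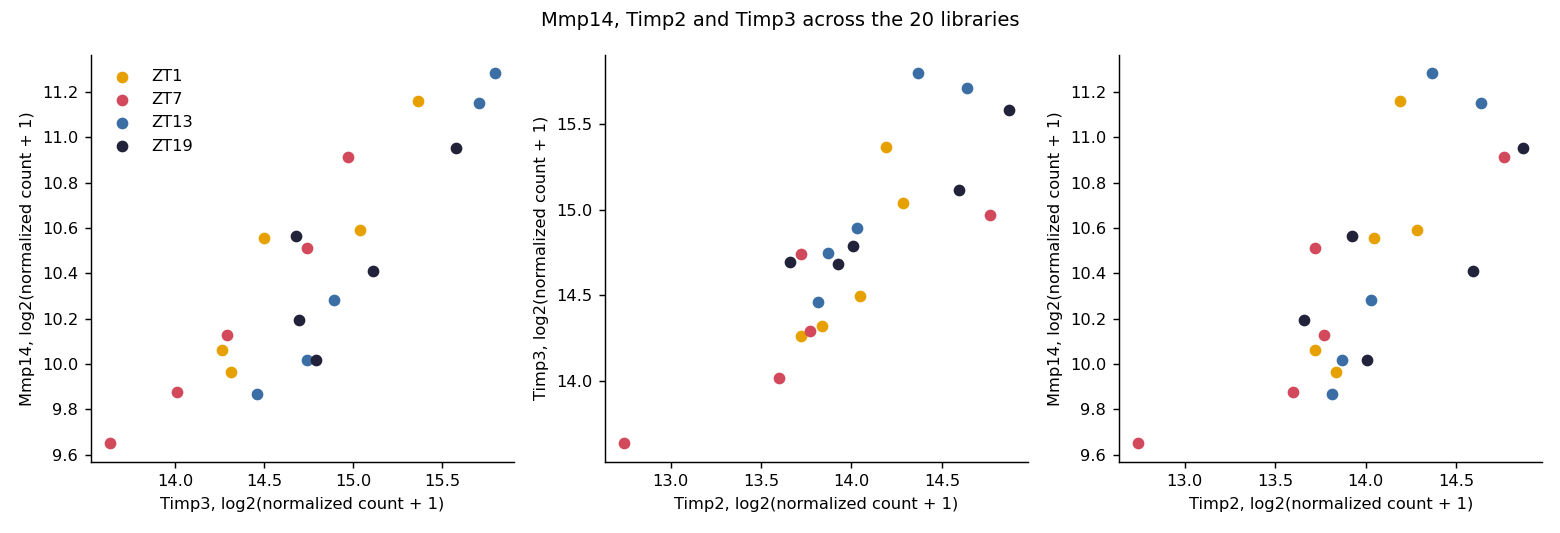
Log2(normalized count + 1) of Mmp14 against Timp3, of Timp3 against Timp2 and of Mmp14 against Timp2, 1 point per library coloured by time of harvest, 20 libraries. The points of the first panel lie along a line (r = 0.882) with those of ZT13 at higher Timp3 for a given Mmp14 than those of ZT1 and ZT7.

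A ratio of 2 genes within a library needs no scaling. The log2 ratio of Timp3 to Mmp14 counts was 4.601 ± 0.08 at ZT13 (SD, n = 5), with libraries from 4.51 to 4.73, against 4.12 ± 0.09 at ZT7 (3.99 to 4.23) and 4.23 ± 0.19 at ZT1 (3.94 to 4.45). All 5 libraries of ZT13 thus lay above all 10 of ZT1 and ZT7, by means of 0.49 and 0.37. At ZT19 it was 4.55 ± 0.26 (4.12 to 4.77) and overlapped the other time points. This ratio was singled out after its values were seen and is given without a test. Among 10719 genes set over Mmp14 in the same way, 1.18% did not overlap between ZT13 and ZT7 and 0.746% between ZT13 and ZT1. The ratio of Timp2 to Mmp14 overlapped in all 6 pairs, at 12.6 ± 2.76 times over the 20 libraries, and so did the sum of TIMPs over proteases, which was 7.66 ± 1.96 at ZT13 and 6.17 ± 1.54 at ZT7 in TPM. The tissue handling score, given above, likewise lay higher at ZT13 than at ZT1 and ZT7 without overlap, and its part in this ratio was not tested.

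For each member with a mean of at least 100 normalized counts, the 3 genes with the most similar course over the 20 libraries were listed by Pearson's r of log2 levels among 10719 genes. For Mmp14 these were Timp3 (0.882), Serinc3 (0.858) and Pard6g (0.851). Adam10 was most like Fgl2 (0.902), Mmrn1 (0.877), an LEC marker, and Snrk (0.832). Timp2 was nearest to Grina (0.914), Palm (0.895) and Ece1 (0.895), itself a metalloprotease, which processes endothelin.

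For Timp3 they were Fam63b (0.898), Cnppd1 (0.887) and Snx4 (0.882). Mmp3 lay nearest to Zfp7 (0.782), Fam81a (0.758) and Rrp1b (0.756), and Mmp2 to E4f1 (0.863), Pink1 (0.855) and Slc39a7 (0.824). The list for Adam17 was Hs3st3b1 (0.818), Tuft1 (0.810) and Znrf3 (0.802), and that for Adamts1 was Sec31a (0.778), Col16a1 (0.772) and Tenc1 (0.770). These are the highest of many values over 20 libraries and carry no test.

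Other genes of the system were taken from written lists. Of 41 other metalloproteases tested, 0 passed among the 4 time points with edgeR (6 at an unadjusted p under 0.05) and 2 with DESeq2. The median difference of the 41 between ZT19 and ZT13 was -1.02, against -0.22 over all genes. Of the 41, 21 were scarce, with a mean under 100 normalized counts, and these had a median of -1.49, against -1.71 over all 8489 genes as scarce. The other 20 had a median of -0.39, against 0.20 over the 10720 genes with a higher mean. The on-gene share of reads also differed between these time points (median 64.0% at ZT19 and 22.9% at ZT13), and its part in these medians was not tested. Tll1, a tolloid-like protease that matures procollagens, had the smallest p of this list, with 121 ± 46.8 normalized counts at ZT19 (SD, n = 5) and 366 ± 78.9 at ZT7 (edgeR, adjusted p = 0.145). Mmp25, which followed (edgeR, adjusted p = 0.204), had 0 counts in all 5 libraries of ZT19 and 49.5 ± 62.2 normalized counts at ZT7, where 2 of 5 libraries were also at 0.

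Among 10 other protease inhibitors 0 passed, also at an unadjusted p under 0.05 and with DESeq2. Reck, a membrane-anchored inhibitor of MMP14 and MMP2, had an adjusted p of 0.497 and Serpine2 one of 0.524 in edgeR's test. In the plasminogen and cathepsin system 0 of 10 passed with edgeR (3 at an unadjusted p under 0.05) and 1 with DESeq2. Htra1, a secreted serine protease, had 474 ± 205 normalized counts at ZT19 and 80.8 ± 52.2 at ZT13 (SD, n = 5), and an adjusted p of 0.113 by edgeR, and Plaur, the urokinase receptor, had 3584 ± 2197 at ZT19 and 1311 ± 549 at ZT7 (edgeR, adjusted p = 0.196).

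Of 13 partners of the sheddases 0 passed (1 at an unadjusted p under 0.05, 0 with DESeq2). Bsg, the MMP inducer basigin, had 4712 ± 1379 normalized counts at ZT19 and 2479 ± 265 at ZT1 (SD, n = 5; edgeR, adjusted p = 0.297), and Tspan33, a tetraspanin that binds ADAM10, had 38.1 ± 48.3 at ZT7 and 0.85 ± 1.31 at ZT19 (edgeR, adjusted p = 0.393).

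Among 17 cleaved substrates 1 passed, namely Sdc4, with edgeR and with DESeq2. It encodes syndecan-4, a heparan sulfate proteoglycan whose outer part is shed by metalloproteases. Sdc4 had 1886 ± 352 normalized counts at ZT1 (SD, n = 5), 1369.9 ± 352 at ZT7, 835 ± 214 at ZT13 and 2426 ± 616 at ZT19, and its libraries of ZT13, from 568 to 1106, did not overlap those of ZT19, from 1447 to 3052. The adjusted p was 0.0476 among the 4 time points, and ZT19 exceeded ZT13 by 1.54 (SE 0.30, adjusted p = 0.0108, both in edgeR's test). With the keratinocyte score as a covariate, which did not overlap between these time points, this difference was 0.87 and was not called (edgeR, adjusted p = 0.383). In a fit of the 2 time points alone the difference was 1.52 and was not called either (edgeR, adjusted p = 0.0653).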

How the data were processed

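RNA of sorted ear skin LECs was sequenced in 20 libraries, 5 at each of 4 time points. After full-length cDNA amplification (SMART-Seq v4) and NexteraXT preparation, which do not mark strand, reads were aligned by the authors to mm10 using STAR. Raw counts per gene symbol from HTSeq-count (1.0.0 in the submitters' processing notes) were deposited. The strand setting is not given in the sources used here. Of all reads in the files, 83.65% were not counted on a gene (on none, ambiguous, or not aligned to 1 place), and these rows were left out of library sizes and tests. PCR copies were not collapsed, so the floor of 3 counts covers counting error only, whereas intervals come from the fits and include the spread between libraries. 0 libraries held identical counts.

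Groups came from the labels. Tests were run with edgeR 4.0.16 under R 4.3.3 (TMM, filter by time point, quasi-likelihood F-test over all 20 libraries), among 4 time points, for 6 pairs and for a cosine of 24 h, with Benjamini-Hochberg adjustment over 19209 genes. The common biological coefficient of variation was 1.00. Log2 levels used a pseudocount of 1. Relations across libraries were tested with 100000 permutations, two-sided. TPM used exon lengths of GENCODE M21 (GRCm38, the build of mm10), found for 98.4% of symbols. Fits were also run on simulated counts, and the outcome is not given here. Alternatives were DESeq2 1.42.0, other scalings, filters and covariates, the replicate number as a block and each library left out.

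The members and lists were chosen with earlier results of these data known. Named genes were the 10 members, the leading gene of marker lists, genes of the protease lists that passed a test (or else the 2 with the smallest p) and the 3 genes most like each member. Some leading markers (Flt1, Col1a1, Rgs5 and Col2a1 among them) are not discussed singly, and results that need items withheld for evaluation are not reported here.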

Additional observations from a re-analysis of the deposited data

How the results depend on the processing

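The count of 0 members called among the 4 time points and for the 24-h curve was the same under all 30 alternatives. Of the 6 pairs, ZT19 against ZT1 and ZT19 against ZT13 gained 1 member, Mmp3, with DESeq2 (2.64 and 2.73, each now past the threshold), and the others stayed at 0. Over all alternatives the adjusted p of Mmp3 ran from 0.0310 to 0.395 for ZT19 against ZT13 and from 0.0366 to 0.442 for ZT19 against ZT1. With the replicate number as a block (replicate block) the difference of ZT19 from ZT13 was 2.78 (edgeR, adjusted p = 0.241) and 0 members were called in every comparison, and 31 in place of 81 genes were called among the 4 time points. Same-numbered libraries share only a number, and the correlations of their deviations ran from -0.13 to 0.0411 over the pairs of time points. Directions that reversed were those of Adamts4 (-1.92) and Timp2 (-0.0311) with the on-gene share of reads as a covariate, of Mmp14 (-0.64) and Timp3 (-0.0381) with the keratinocyte score as a covariate, which was chosen after seeing the data and did not overlap between ZT13 and ZT7, and of Timp1 without ZT1 replicate 5 (-0.277, and an amplitude of 0.277 with the peak moved by over 6 h), each as the highest minus the lowest time point. With each library left out, the value of Timp1 ran from -0.277 to 2.16 and its amplitude from 0.277 to 1.08. The cause was not tested. With each library left out, 2 to 10 of the 40 relations were called (10 without ZT7 replicate 2, 2 without ZT19 replicate 2, and 3 without ZT7 replicate 3, ZT7 replicate 5 or ZT13 replicate 5). Of the 45 pairs of members, 12 were called with TMM, 3 with RLE and 6 with upper quartile scaling, the last 2 scalings being added here after seeing the data. Without the 2 deepest libraries, also chosen after seeing the data, ZT19 exceeded ZT13 by 2.45 for Mmp3 (edgeR, adjusted p = 0.102). Sdc4 was not called between ZT19 and ZT13 in a fit of these time points alone (1.52, edgeR, adjusted p = 0.0653). Adamts4 had no read in 3 libraries and Mmp3 in 1, among them ZT13 replicate 5 (42002363 reads on genes, no read of either gene) and ZT19 replicate 1 (36022409, none of Adamts4), the 2 deepest.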
